A study of Danio rerio with 16 samples.

Results

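Gypsy elements are retrotransposons of the long terminal repeat (LTR) type, here of the zebrafish, Danio rerio. They were taken as every repeat family of the deposited count table that was listed in the class LTR with Gypsy in its family or superfamily name and had 10 or more counts in 2 or more of the 16 libraries. This gave 223 families out of 338 Gypsy rows, out of 1036 repeat families and out of 33556 rows in all. A whole Gypsy element is usually listed as 2 families, a family of LTRs (107 members) and a family of internal parts (112 members), and 4 members carry neither mark in their name: Gypsy-173_DR, GypsyDR1, GypsyDR2 and SUSHIIDR1. By name the members come from 139 elements, of which 83 had both an LTR and an internal member. Variant LTRs such as Gypsy97-LTR-B_DR and Gypsy101-LTRb_DR were counted as elements of their own and not joined to an internal part. The names of 9 members start with Copia although their superfamily is listed as Gypsy, and they were kept.

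Retrotransposons of this type are transcribed into RNA, copied into DNA by their own reverse transcriptase and inserted into the genome again. The internal part of a Gypsy element codes for the gag and pol proteins, and the LTRs at both ends hold the promoter and the signal for the end of the transcript. LTRs that have lost their internal part by recombination between the ends stay in genomes as solo LTRs and can be transcribed from, or within, other genes. In vertebrates such families are repressed by DNA methylation, by repressive histone methylation and, in the germ line, by small RNAs bound to Piwi proteins.

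RNA came from whole wild-type embryos (labelled WT) that were given a locked nucleic acid (LNA), an antisense oligonucleotide with a stiffened backbone, by injection at 0 hours post fertilization (hpf). Knockdown embryos received Bik-1 LNA, directed at the endogenous retrovirus BHIKHARI, and control embryos received Scrambled LNA. Both were collected at 8, 11, 14 and 18 hpf, in 2 replicates for each of the 8 groups, and all 16 libraries were made from polyadenylated RNA with a directional kit. Nothing in the labels ties a replicate number to a clutch or an injection day, so the tests measure the spread between these libraries, which may be technical.

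Library totals were 4399855 to 7694887 counts, of which Gypsy members took 12107 to 26362 counts, or 0.255% to 0.369%. A member had a median of 21 to 47 counts in a library. Levels are given in CPM, read counts scaled to a common library size by the trimmed mean of M-values (TMM). BHIKHARI_LTR, the targeted retrovirus and not a Gypsy family, was lower in both knockdown libraries than in both control libraries at each time, at 34.8 to 751 CPM in knockdown embryos and 98.9 to 2822 CPM in control embryos over all times. All 7 listed genes of the gastrula mesendoderm fell in control embryos between 8 and 18 hpf, and all 4 measured genes of somite muscle and all 3 of blood rose. Other lists were mixed. Of 7 neural genes 6 rose and 1 fell, of 4 enveloping layer genes 2 rose and 2 fell, and of 3 yolk syncytial layer genes 2 rose. In whole embryos, fewer cells of a type and less RNA per cell cannot be told apart.

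The members differed widely in how many reads they drew. Over the 16 libraries the mean was 0.498 to 197 CPM with a median of 5.77 CPM. A total of 77 members had 10 CPM or more and 17 had under 1 CPM. The 12 highest members held 38.4% of the summed Gypsy signal. Of these, 10 are internal parts: Gypsy-21-I_DR, Gypsy117-I_DR, Gypsy102-I_DR, Gypsy12-I_DR, Gypsy132-I_DR, Gypsy13-I_DR, Gypsy94-I_DR, Gypsy4-I_DR, Gypsy-15-I_DR and Gypsy149-I_DR. The other two are the LTRs Gypsy50-LTR_DR, which had the highest mean, and Gypsy-21-LTR_DR. These are shares of reads and not levels per length, since family lengths were not used here.

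At the low end, Gypsy159-I_DR, Gypsy119-I_DR and Gypsy149-LTR_DR were just inside the minimum, with a second highest count of 10 each and 53, 75 and 80 counts over all libraries. Gypsy-29-LTR_DR, Gypsy124-LTR_DR and Gypsy44-LTR_DR were just outside it, with a second highest count of 9 each and 78, 79 and 84 counts in all. Of the 223 members, 219 had enough counts to be tested together with the genes. Gypsy61-I_DR, Gypsy49-LTR_DR, Gypsy142-I_DR and Gypsy159-I_DR were not tested.

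Developmental time was compared first within each treatment. As a whole, Gypsy RNA was lower at later times. Summed over the members it was 2752 and 2526 CPM at 18 hpf against 3406 and 3976 CPM at 8 hpf in knockdown embryos. In control embryos it was 2662 and 2987 CPM at 18 hpf against 3849 and 3966 CPM at 8 hpf. In both treatments each 18 hpf library lay below each 8 hpf library. The fall was not particular to Gypsy. All repeat families together took 8.752% to 12.42% of library counts at 8 hpf and 5.567% to 6.518% at 18 hpf. Within the family counts the Gypsy share was 2.93% to 4.21% at 8 hpf and 4.42% to 4.58% at 18 hpf. Of the 219 members tested, the highest mean of the 4 times fell at 8 hpf for 102 in knockdown embryos and 100 in control embryos, with 85 in both. It fell at 18 hpf for 51 members in knockdown embryos and 63 in control embryos, with 38 in both. These counts were not made for all features, so they are not read as particular to Gypsy.

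Between 8 and 18 hpf, 73 of the 219 members changed in knockdown embryos (19 rose and 54 fell) and 72 in control embryos (17 rose and 55 fell). A change was called at an adjusted p under 0.05 in edgeR's quasi-likelihood test, with Benjamini-Hochberg adjustment over all 17756 genes and families tested. The members' shares were 33.3% in knockdown embryos and 32.9% in control embryos, below the 57.9% of all features called in knockdown embryos (33% higher and 24.9% lower) and the 60% called in control embryos (33.7% higher and 26.4% lower). Among repeat families other than Gypsy the shares were 34.4% in knockdown embryos and 35.8% in control embryos. Falls outnumbered rises among the members, while rises outnumbered falls among all features. Falls also outnumbered rises among the other families, with 138 against 83 in knockdown embryos and 121 against 109 in control embryos. The other families' median log2 fold change was -0.11 in knockdown embryos and -0.03 in control embryos. These differences were not tested. The members' median standard error was larger, at 0.47 in knockdown embryos and 0.48 in control embryos on the log2 scale, against 0.35 for all features in either treatment and 0.23 for other families. The members' median log2 fold change was -0.22 in knockdown embryos and -0.18 in control embryos, and that of all features was 0.12 in knockdown embryos and 0.10 in control embryos.

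The falls lay mostly in internal parts. In knockdown embryos 35 of 109 internal parts fell and 12 rose, and 17 of 106 LTRs fell and 7 rose. In control embryos 40 internal parts fell and 9 rose, while 14 LTRs fell and 8 rose. The median log2 change of the internal parts was -0.51 in knockdown embryos and -0.55 in control embryos, and that of the LTRs was -0.09 in knockdown embryos and 0.08 in control embryos. Other LTR-class families, with BHIKHARI left out, had medians of -0.04 (50 internal parts) and -0.22 (52 LTRs) in knockdown embryos, and of -0.06 and 0.03 in control embryos. The difference between Gypsy and these families was not tested.

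Among the named falls Gypsy140-I_DR had the smallest p in control embryos. It stood at 33.8 and 43.7 CPM in knockdown embryos against 44.5 and 49.8 CPM in control embryos at 8 hpf, 13.8 and 18.1 against 16.6 and 24.6 at 11 hpf, 10.55 and 10.57 against 17.1 and 13.9 at 14 hpf, and 7.85 and 8.34 against 4.84 and 7.11 at 18 hpf. In both treatments the 8 hpf libraries were above all later ones and the 18 hpf libraries below all earlier ones. Its log2 fold change from 8 to 18 hpf was -2.26 (SE 0.26, adjusted p = 1.53e-06) in knockdown embryos and -2.95 (SE 0.26, adjusted p = 1.29e-07) in control embryos.

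Gypsy-25-I_DR had the largest named fall in control embryos. It stood at 1.75 and 3.34 CPM in knockdown embryos and 0.440 and 0.837 CPM in control embryos at 18 hpf, against 14.5 and 17.2 CPM in knockdown embryos and 13.4 and 8.84 CPM in control embryos at 8 hpf. The log2 changes were -2.66 in knockdown embryos (SE 0.54, adjusted p = 0.000526) and -4.01 in control embryos (SE 0.66, adjusted p = 8.19e-05). At 18 hpf both of its knockdown libraries lay above both controls. The change over time was not called different between the treatments (log2 difference 1.35, SE 0.89, adjusted p = 0.918).

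Gypsy128-I_DR stood at 2.04 and 1.30 CPM in knockdown embryos and 1.98 and 1.40 CPM in control embryos at 18 hpf. At 8 hpf it stood at 8.32 and 15.3 CPM in knockdown embryos and 12.4 and 18.4 CPM in control embryos. It fell by 2.79 (SE 0.50) in knockdown embryos and by 3.21 (SE 0.50) in control embryos on the log2 scale, with the treatments overlapping at both times. Gypsy81-I_Dr fell by 1.81 in knockdown embryos and by 2.10 in control embryos. Gypsy-32-I_DR and Gypsy66-I_DR also passed in control embryos but rest on few reads, with 1 and 2 counts and 0 and 2 counts in the control libraries at 18 hpf, so no fold is given for them. Gypsy-32-I_DR no longer passed in control embryos when control 8 hpf replicate 1 (adjusted p = 0.0617), control 18 hpf replicate 1 (0.0528) or control 18 hpf replicate 2 (0.0636) was left out.

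Of the 10 internal parts among the highest members, several fell as well. Gypsy-21-I_DR stood at 244 and 294 CPM in knockdown embryos against 307 and 311 CPM in control embryos at 8 hpf, 180.0 and 261 against 189 and 203 at 11 hpf, 158 and 198 against 166 and 193 at 14 hpf, and 79.2 and 116 against 89.9 and 108 at 18 hpf. The 18 hpf libraries of both treatments were below all others. It fell by 1.46 in knockdown embryos (SE 0.20, adjusted p = 2.23e-05) and by 1.64 in control embryos (SE 0.20, adjusted p = 7.89e-06) on the log2 scale. Its LTR, Gypsy-21-LTR_DR, fell by 0.77 in knockdown embryos and by 0.82 in control embryos. Gypsy4-I_DR, Gypsy149-I_DR, Gypsy102-I_DR and Gypsy94-I_DR fell in both treatments too, by 1.78, 1.85, 1.20 and 0.72 in knockdown embryos and by 1.70, 1.59, 1.41 and 0.75 in control embryos. Gypsy117-I_DR, Gypsy-15-I_DR and Gypsy132-I_DR had log2 changes of -0.27, -0.15 and -0.35 in knockdown embryos, none of them called, and of -0.92, -0.58 and -0.49 in control embryos, all called, and Gypsy13-I_DR and Gypsy12-I_DR were not called in either. The highest LTR, Gypsy50-LTR_DR, had -0.62 in knockdown embryos (adjusted p = 0.0278) and -0.38 in control embryos (adjusted p = 0.151).

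Rises were fewer. Both parts of the element Gypsy11 rose. Gypsy11-LTR_DR stood at 8.14 and 9.27 CPM in knockdown embryos and 7.26 and 11.85 CPM in control embryos at 18 hpf. At 8 hpf it stood at 1.27 and 1.14 CPM in knockdown embryos and 1.64 and 1.70 CPM in control embryos. Every 18 hpf library was above every library of the earlier times. The log2 change was 2.84 in knockdown embryos (SE 0.56, adjusted p = 0.000412) and 2.52 in control embryos (SE 0.53, adjusted p = 0.000691). Its internal part, Gypsy11-I_DR, rose by 1.97 in knockdown embryos and by 2.40 in control embryos.

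Gypsy55-I_DR rose in both treatments. It stood at 3.62 and 6.50 CPM in knockdown embryos against 7.86 and 4.25 CPM in control embryos at 8 hpf, 12.01 and 14.3 against 10.1 and 14.8 at 11 hpf, 14.4 and 15.1 against 15.8 and 20.5 at 14 hpf, and 21.1 and 23.0 against 22.4 and 17.4 at 18 hpf. The treatments overlapped at 8, 11 and 18 hpf, and at 14 hpf both knockdown libraries were below both controls. The log2 change from 8 to 18 hpf was 2.11 (SE 0.33, adjusted p = 4.7e-05) in knockdown embryos and 1.70 (SE 0.33, adjusted p = 0.000292) in control embryos. Gypsy47-I_DR rose by 1.08 in knockdown embryos and by 1.91 in control embryos.

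For 3 further named rises the call in control embryos depended on single libraries. Gypsy-14-LTR_DR had a log2 change of 1.23 in knockdown embryos and 2.06 in control embryos, and its adjusted p in control embryos became 0.0531 with control 8 hpf replicate 2 left out and 0.0506 with control 18 hpf replicate 2 left out. Gypsy-17-LTR_DR had 1.49 in knockdown embryos and 1.64 in control embryos, with 0.144 when control 8 hpf replicate 1 and 0.0946 when control 18 hpf replicate 2 was left out. Gypsy-150-LTRb_DR had 1.49 in knockdown embryos (adjusted p = 0.0506) and 1.76 in control embryos, with 0.133 when control 8 hpf replicate 2 and 0.126 when control 18 hpf replicate 1 was left out.

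**Figure D1:**
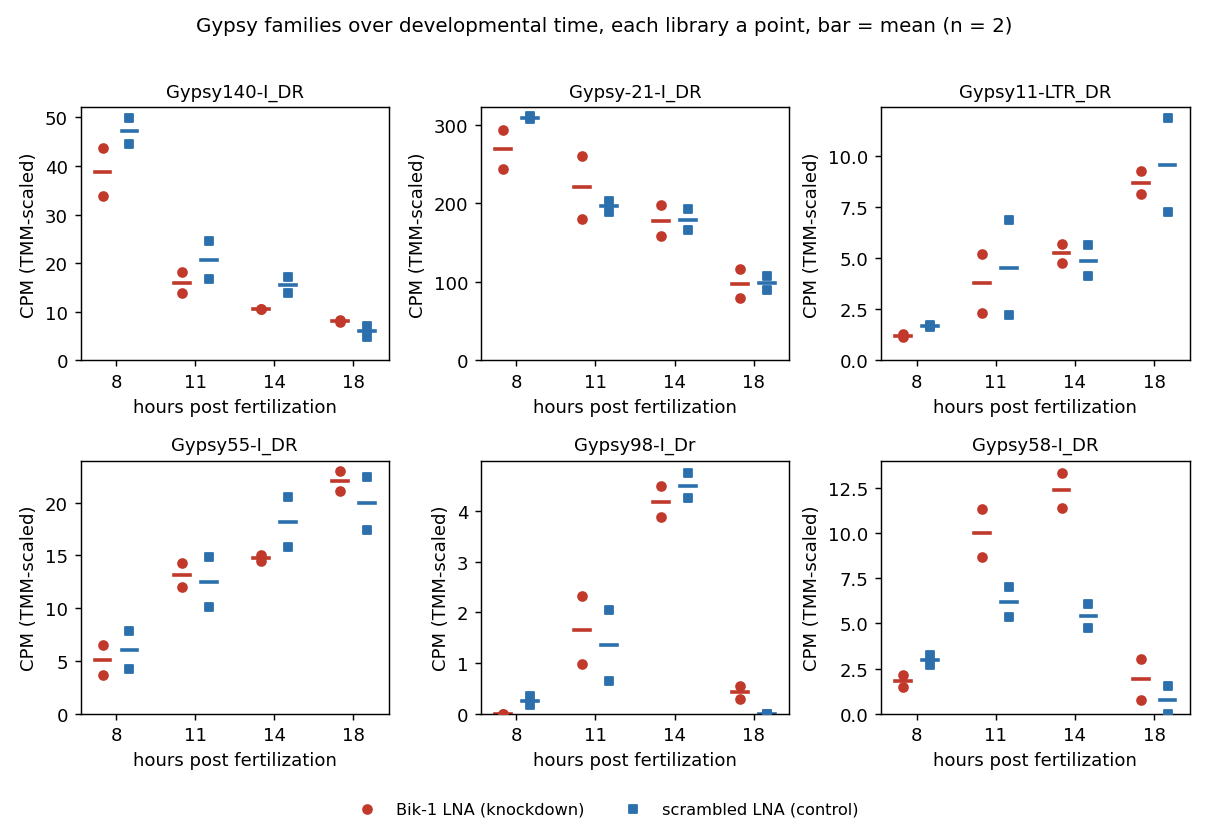
CPM (TMM-scaled, linear axis from 0) of 6 Gypsy families at 8, 11, 14 and 18 hpf. Each point is a library and each bar the mean of 2, with knockdown embryos as red circles left of control embryos as blue squares. Gypsy140-I_DR and Gypsy-21-I_DR are lowest at 18 hpf, Gypsy11-LTR_DR is highest at 18 hpf, and Gypsy98-I_Dr and Gypsy58-I_DR are high at 11 and 14 hpf and low at 18 hpf.

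The 2 time courses share no library, so each can be read against the other. Both come from the same fit with a shared estimate of spread, so their calls are not fully independent. Same-numbered knockdown and control replicates also deviated together over the members, with correlations of 0.271 at 8 hpf and 0.236 at 18 hpf. How far this adds to the likeness of the 2 courses was not tested. Of the members called, 47 were called in both, which is 64.4% of those called in knockdown embryos and 65.3% of those called in control embryos. The call rates in these comparisons are another measure, at 33.3% of the members and 57.9% of all features in knockdown embryos. In control embryos they were 32.9% and 60%. The overlap among all features was not counted, so that of the members is not read as particular to Gypsy. All 47 had the same sign, with 11 higher and 36 lower at 18 hpf. Of these, 26 of the falls and 6 of the rises were internal parts, and 9 of the falls and 5 of the rises were LTRs. The signs matched in 185 of the 219 members. Across members the changes correlated with a Pearson r of 0.704 and a Spearman rho of 0.784, a description over families that share libraries. Besides those above, Gypsy45-I_DR, Gypsy50-I_DR, Gypsy69-I_DR and Gypsy104-I_Dr fell in both, and Gypsy54-I_DR, Gypsy-17-I_DR, Gypsy153-I_DR and Gypsy43-LTR_DR rose in both. These 8 were picked after their values were seen. Gypsy45-I_DR had 10 or more counts only at 8 hpf, and Gypsy149-LTR_DR, another of the rises, only at 18 hpf. Both thus met the count minimum only through the time where they were high.

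**Figure D2:**
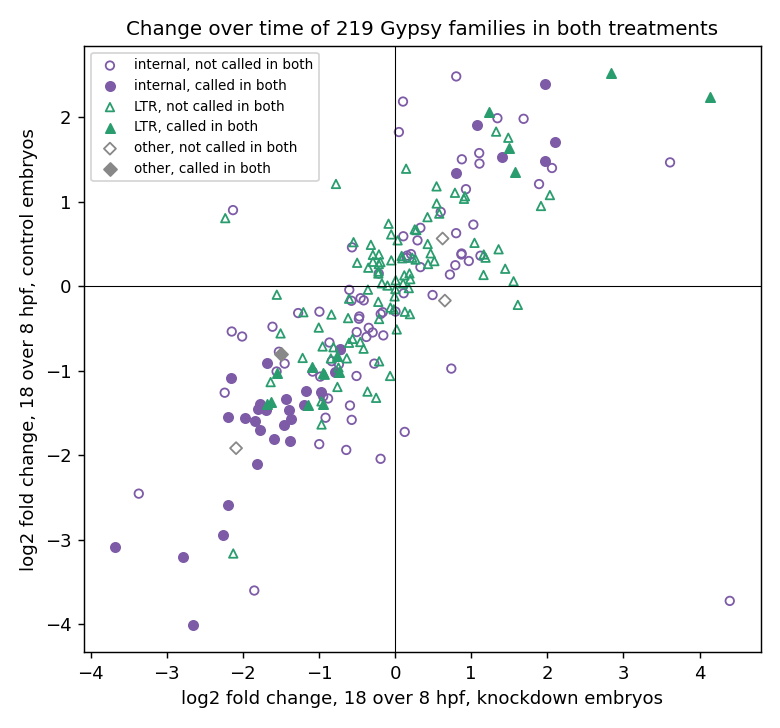
Log2 fold change from 8 to 18 hpf of 219 Gypsy families in knockdown embryos (horizontal axis) and control embryos (vertical axis). Circles are internal parts, triangles LTRs and diamonds other members, filled where called in both treatments. The filled points lie in the lower left (36 families) and the upper right (11 families). The point at the lower right is Gypsy98-I_Dr, whose fitted changes are no measured folds because it had 0 counts in both knockdown libraries at 8 hpf and in both control libraries at 18 hpf.

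The steps between successive times held unequal numbers of changes. From 8 to 11 hpf 23 members changed in knockdown embryos (7 rose and 16 fell) and 27 in control embryos (6 rose and 21 fell), which is 10.5% of those tested in knockdown embryos and 12.3% in control embryos. Of all features 28% were called in knockdown embryos (17.3% higher and 10.7% lower) and 30.4% in control embryos (18.4% higher and 12% lower). From 11 to 14 hpf 0 members were called in either treatment by edgeR or, in control embryos, by DESeq2, where 1.64% of all features were called in knockdown embryos and 2.64% in control embryos. At an unadjusted p under 0.05 there were 13 members in knockdown embryos (5.94%, against 12.4% of all features) and 9 in control embryos (4.11%, against 14.7%). From 14 to 18 hpf 4 members changed in knockdown embryos (1 rose and 3 fell) and 7 in control embryos, all of them falls of internal parts. Of all features 13.1% were called in knockdown embryos (8.79% higher and 4.34% lower) and 11.6% in control embryos (7.76% higher and 3.85% lower).

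These single steps moved with single libraries. The share of all features called also fell in each case below, where 1 group was left with 1 library. Losing calls was thus not limited to Gypsy, but in most of these cases the members lost more in proportion than all features. This difference was not tested. The 27 calls from 8 to 11 hpf in control embryos became 15 with control 8 hpf replicate 1 left out, 3 with control 8 hpf replicate 2 left out and 17 with control 11 hpf replicate 2 left out. The 7 calls from 14 to 18 hpf became 4 with knockdown 14 hpf replicate 1 left out, 3 or 2 when either control 14 hpf library (replicate 1 or 2, in that order) was dropped, and 1 with control 18 hpf replicate 1 left out. From 8 to 18 hpf the 73 calls in knockdown embryos became 39 with knockdown 8 hpf replicate 2 left out, and 41 or 42 when either knockdown 18 hpf library (replicate 1 or 2, in that order) was dropped. The 72 calls in control embryos became 45 with control 8 hpf replicate 2 left out and likewise 45 with control 18 hpf replicate 1 left out.

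The 6 members with the largest called changes from 8 to 11 hpf in control embryos had 2 to 66 counts in each control library of these times. Gypsy92-I_DR stood at 0.811 and 7.59 CPM in knockdown embryos and 2.61 and 4.89 CPM in control embryos at 11 hpf, after 2.35 and 2.27 CPM in knockdown embryos and 0.819 and 0.340 CPM in control embryos at 8 hpf. Its log2 change was 0.90 in knockdown embryos (adjusted p = 0.356) and 2.65 in control embryos (adjusted p = 0.0251). Gypsy59-LTR_DR and Gypsy-14-LTR_DR had changes of 1.57 and 0.17 in knockdown embryos and 1.80 and 1.60 in control embryos. Gypsy5-LTR_DR, Gypsy57-LTR_DR and Gypsy77-I_DR had -0.29, -1.15 and -1.12 in knockdown embryos and -1.65, -1.65 and -1.50 in control embryos, and these 6 were not called in knockdown embryos.

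Each of those 6 calls in control embryos was lost when at least 1 library of 8 or 11 hpf was left out. With control 8 hpf replicate 2 left out the adjusted p was 0.181 for Gypsy92-I_DR, 0.0598 for Gypsy59-LTR_DR, 0.266 for Gypsy-14-LTR_DR, 0.0918 for Gypsy5-LTR_DR, 0.0604 for Gypsy57-LTR_DR and 0.0913 for Gypsy77-I_DR. With control 8 hpf replicate 1 left out it was 0.0565 for Gypsy92-I_DR, 0.227 for Gypsy59-LTR_DR, 0.148 for Gypsy57-LTR_DR and 0.107 for Gypsy77-I_DR. With control 11 hpf replicate 1 left out it was 0.202 for Gypsy59-LTR_DR, 0.0572 for Gypsy57-LTR_DR and 0.288 for Gypsy77-I_DR. With control 11 hpf replicate 2 left out it was 0.127 for Gypsy92-I_DR, 0.557 for Gypsy-14-LTR_DR, 0.0757 for Gypsy5-LTR_DR and 0.19 for Gypsy57-LTR_DR. Leaving out libraries of other times moved Gypsy59-LTR_DR to 0.0509 (control 14 hpf replicate 1), Gypsy77-I_DR to 0.0501 (control 18 hpf replicate 1) and Gypsy-14-LTR_DR to 0.0502 (knockdown 18 hpf replicate 1).

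Some members were highest at 11 or 14 hpf, among them both parts of the element Gypsy59. A pair of internal parts with such a course is described here. Gypsy98-I_Dr stood at 0 and 0 CPM in knockdown embryos and 0.164 and 0.340 CPM in control embryos at 8 hpf, 0.974 and 2.32 against 0.653 and 2.05 at 11 hpf, 3.88 and 4.50 against 4.76 and 4.26 at 14 hpf, and 0.291 and 0.556 against 0 and 0 at 18 hpf. In both treatments the 14 hpf libraries were above all others. In knockdown embryos the level at 11 hpf was at least 6.79-fold higher than at 8 hpf (25 against 0 counts, called, adjusted p = 0.00371). At 18 hpf it was at least 1.59-fold higher than at 8 hpf (5 against 0 counts). This change was called and is among the 19 rises in knockdown embryos, though it rests on few reads. In control embryos the level at 18 hpf was at least 17.6-fold lower than at 14 hpf (0 against 57 counts, called, adjusted p = 0.000965). Each bound sets a floor of 3 counts for the group that had none and takes the other group's count as observed. It covers counting error of the group without counts only.

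Gypsy58-I_DR, with more reads, was also highest at 11 and 14 hpf. It stood at 2.17 and 1.46 CPM in knockdown embryos and 3.28 and 2.72 CPM in control embryos at 8 hpf, 11.4 and 8.69 against 7.02 and 5.36 at 11 hpf, 13.4 and 11.4 against 4.76 and 6.09 at 14 hpf, and 3.05 and 0.741 against 0 and 1.53 at 18 hpf. At 11 and 14 hpf both knockdown libraries were above both controls, but the treatments were not called different (14 hpf: log2 1.19, SE 0.52, unadjusted p = 0.0376, adjusted p = 0.868). From 14 to 18 hpf it fell by 2.64 in knockdown embryos (SE 0.58, adjusted p = 0.00664) and by 2.58 in control embryos (SE 0.68, adjusted p = 0.0202). In control embryos the adjusted p was 0.0717 with control 14 hpf replicate 1 left out, 0.115 with control 14 hpf replicate 2 left out and 0.115 with control 18 hpf replicate 1 left out.

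Gypsy-24-I_DR and Gypsy-165-I_DR changed over time in control embryos without a call in knockdown embryos. The LTRs of these elements did not share this. Gypsy-24-LTR_DR was called lower in both treatments (-0.74 in knockdown embryos and -1.02 in control embryos). Gypsy-165-LTR_DR was called in neither (0.18 in knockdown embryos and -0.02 in control embryos). Gypsy-24-I_DR stood at 5.97 and 8.61 CPM in knockdown embryos and 14.9 and 13.4 CPM in control embryos at 8 hpf, 4.22 and 5.75 against 5.88 and 8.20 at 11 hpf, 4.74 and 5.89 against 8.04 and 7.30 at 14 hpf, and 7.71 and 5.003 against 3.52 and 3.35 at 18 hpf. The knockdown libraries were below both controls at 8, 11 and 14 hpf and above both at 18 hpf. Its log2 change from 8 to 18 hpf was -0.19 (SE 0.34, adjusted p = 0.645) in knockdown embryos and -2.04 (SE 0.35, adjusted p = 0.00011) in control embryos.

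Gypsy-165-I_DR ran the other way, at 7.12 and 7.97 CPM in knockdown embryos and 12.8 and 12.4 CPM in control embryos at 18 hpf, against 6.69 and 7.31 CPM in knockdown embryos and 3.44 and 2.04 CPM in control embryos at 8 hpf. Its log2 change was 0.10 (SE 0.39, adjusted p = 0.83) in knockdown embryos and 2.19 (SE 0.42, adjusted p = 0.000283) in control embryos. The difference between the 2 changes was 1.85 for Gypsy-24-I_DR (SE 0.49, unadjusted p = 0.00143) and -2.08 for Gypsy-165-I_DR (SE 0.57, unadjusted p = 0.002). Neither passed over all features (adjusted p = 0.528 and 0.537). By the same test 0 of all 17756 features were called. At an unadjusted p under 0.05 there were 7 members (3.2%), against 5.76% of all features. The named fall of Gypsy72-I_DR was likewise called in control embryos (-1.94, adjusted p = 0.00852; 0.0598 with control 18 hpf replicate 2 left out) and not in knockdown embryos (-0.64, adjusted p = 0.305).

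The knockdown comparison asks how Gypsy RNA stood in embryos in which BHIKHARI was targeted. The summed Gypsy signal had a mean of 3691 ± 403 CPM in knockdown embryos against 3907 ± 82.8 CPM in control embryos at 8 hpf, 3094 ± 185 against 3155 ± 67.4 at 11 hpf, 2817 ± 72.9 against 3107 ± 15.8 at 14 hpf, and 2639 ± 159 against 2824 ± 230 at 18 hpf (SD, n = 2 each). The log2 ratio averaged -0.088 over the 4 times. At 14 hpf both knockdown libraries were below both controls, and at 8, 11 and 18 hpf the treatments overlapped.

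Family by family, 0 members rose and 3 fell on average over the 4 times, 1.37% of the 219 tested. Of all features 1.63% were called (0.332% higher and 1.3% lower), so the members' share was near the background. With knockdown 11 hpf replicate 1 left out, 17 of 222 members (7.66%) and 5.31% of all features were called. Leaving out any other library gave 2 to 4 members. Over 11, 14 and 18 hpf alone 0 members were called, against 0.315% of all features. That 0 depended on the filter and on 1 library. With no filter on low counts 13 members were called (5.83%, against 2.85% of all features). Calls also appeared with knockdown 11 hpf replicate 1 left out. At single times 0 members were called by edgeR or DESeq2, where 0.344% of all features were called at 8 hpf, 0.00563% at 11 hpf, 0.00563% at 14 hpf and 0.0113% at 18 hpf. At an unadjusted p under 0.05 there were 29 members in the average, 8 higher and 21 lower, or 13.2% against 15.4% of all features. At the single times in order there were 19, 5, 12 and 12 members, or 8.68%, 2.28%, 5.48% and 5.48%, against 9.19%, 4.64%, 5.58% and 4.5% of all features. The knockdown effect was not called different between the times for any of the 219 members by edgeR or DESeq2 (3, or 1.37%, had an unadjusted p under 0.05 in edgeR, against 2.64% of all features).

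The 3 families that fell are all LTRs. Gypsy85-LTR_DR stood at 5.97 and 10.2 CPM in knockdown embryos against 15.1 and 14.6 CPM in control embryos at 8 hpf, 9.41 and 6.97 against 18.4 and 12.9 at 11 hpf, 4.31 and 5.37 against 14.4 and 9.43 at 14 hpf, and 5.23 and 6.67 against 7.70 and 10.9 at 18 hpf. Both knockdown libraries were below both controls at each time. The average log2 fold change was -0.94 (SE 0.17, adjusted p = 0.00849), with -0.87, -0.94, -1.29 and -0.66 at the single times. Its internal part, Gypsy85-I_DR, had 0 counts in all 16 libraries.

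Gypsy117-LTR_DR stood at 22.1 and 15.1 CPM in knockdown embryos against 30.8 and 32.6 CPM in control embryos at 8 hpf, 20.6 and 17.5 against 26.6 and 26.2 at 11 hpf, 15.3 and 15.1 against 22.5 and 30.0 at 14 hpf, and 22.4 and 20.0 against 25.1 and 25.4 at 18 hpf. The treatments did not overlap at any time. The average was -0.57 (SE 0.11, adjusted p = 0.00909), with -0.77, -0.47, -0.79 and -0.25 at the single times. Its internal part, Gypsy117-I_DR, is among the most abundant members and stood at 126 and 169 CPM in knockdown embryos against 198 and 215 CPM in control embryos at 8 hpf, 105 and 139 against 101 and 173 at 11 hpf, 120.0 and 137 against 146 and 157 at 14 hpf, and 129 and 115 against 116 and 103 at 18 hpf. It was below both controls at 8 and 14 hpf, overlapped them at 11 and 18 hpf and was not called in the average (-0.18, SE 0.11, adjusted p = 0.443).

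Gypsy37-LTR_DR stood at 4.16 and 4.22 CPM in knockdown embryos against 8.02 and 7.65 CPM in control embryos at 8 hpf, 6.82 and 4.40 against 9.63 and 8.04 at 11 hpf, 6.68 and 3.64 against 7.38 and 10.04 at 14 hpf, and 5.96 and 4.08 against 9.45 and 10.04 at 18 hpf. Again no knockdown library reached a control of its time. The average was -0.82 (SE 0.18, adjusted p = 0.0275), with -0.90, -0.67, -0.77 and -0.95 at the single times. Its internal part had 44 counts over all libraries and is no member. This call was lost when any 1 of 9 libraries was left out. The adjusted p then was 0.0536 for knockdown 8 hpf replicate 1, 0.0568 for knockdown 11 hpf replicate 2, 0.08 for knockdown 14 hpf replicate 2 and 0.0849 for knockdown 18 hpf replicate 2. Among the control libraries it was 0.0558 for 8 hpf replicate 1, 0.0573 for 11 hpf replicate 1, 0.0933 for 14 hpf replicate 2, and 0.0597 or 0.0768 for 18 hpf replicate 1 or 2. All 3 calls were lost when the average was taken over 11, 14 and 18 hpf alone, with log2 fold changes of -0.96 for Gypsy85-LTR_DR, -0.50 for Gypsy117-LTR_DR and -0.80 for Gypsy37-LTR_DR. With other scalings, tried after seeing the data, Gypsy85-LTR_DR was still called over these 3 times (adjusted p = 0.0445 with median-of-ratios size factors and 0.0478 with TMM from genes alone).

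**Figure D3:**
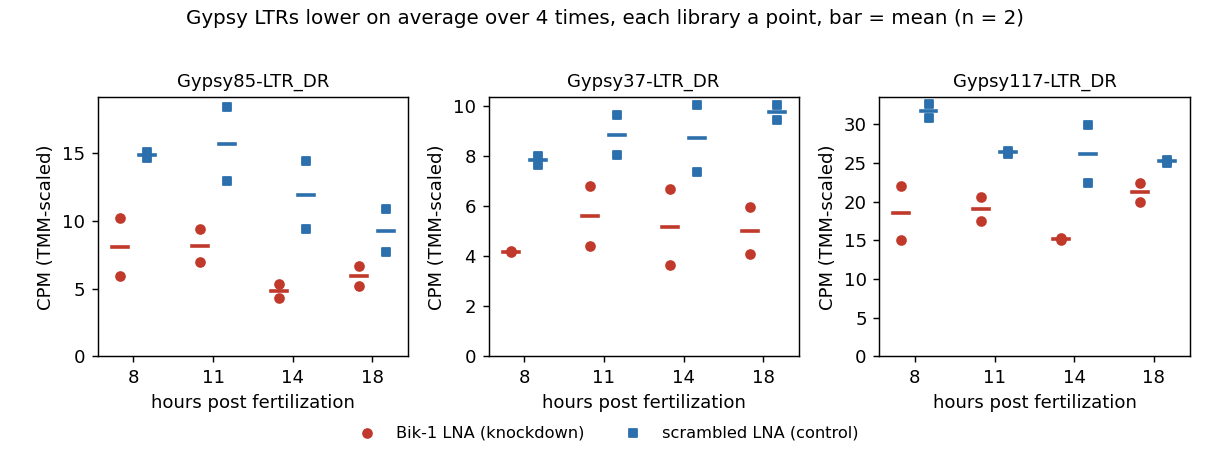
CPM (TMM-scaled, linear axis from 0) of the 3 LTR families called lower on average over the 4 times. Each point is a library and each bar the mean of 2, with knockdown embryos as red circles left of control embryos as blue squares. In each family both knockdown libraries lie below both control libraries at 8, 11, 14 and 18 hpf.

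The next members by p were LTRs too. Gypsy45-LTR_DR stood at 14.8 and 12.02 CPM in knockdown embryos against 16.5 and 17.2 CPM in control embryos at 8 hpf, 5.52 and 6.97 against 12.4 and 7.10 at 11 hpf, 4.31 and 5.54 against 8.04 and 6.69 at 14 hpf, and 5.38 and 3.71 against 8.36 and 8.23 at 18 hpf. Its average log2 fold change was -0.60 (SE 0.16, adjusted p = 0.0796), and its internal part Gypsy45-I_DR had 0.09 (SE 0.51). Gypsy127-LTR_DR had -0.53 (SE 0.15, adjusted p = 0.0937), and its internal part had 24 counts in all. Gypsy161-I_DR (-0.62, SE 0.21, adjusted p = 0.168) is the internal part that, like the 3 families called and Gypsy45-LTR_DR, was below the controls in both knockdown libraries at each time. These 5 members are 2.28% of those tested, against 1.27% of all features, and 0 members were above the controls at each time, against 0.524%.

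LTRs and internal parts stood apart in the knockdown average. The log2 fold change was below 0 for 83 of 106 LTRs (78.3%), with a median of -0.19, and for 45 of 109 internal parts (41.3%), with a median of 0.051. At an unadjusted p under 0.05, 15 LTRs were lower and 1 higher, and 5 internal parts were lower and 7 higher. These are 15.1% of the LTRs and 11% of the internal parts, against 15.4% of all features (1445 lower and 1296 higher). Of all features 48.3% were below 0, with a median of 0.009. Of the 643 repeat families other than Gypsy 62.2% were below 0, with a median of -0.032. Among the 402 families of class DNA it was 63.4%, with a median of -0.028. A lean below 0 was thus not limited to LTRs, but that of the Gypsy LTRs was larger. At the single times in order 47.8%, 48.5%, 71.6% and 60.4% of the DNA families were below 0. For the Gypsy LTRs it was 66%, 62.3%, 73.6% and 74.5%. The split was also seen in other LTR-class families without BHIKHARI, where 37 of 52 LTRs (71.2%, median -0.14) and 22 of 50 internal parts (44%, median 0.029) were below 0. Families share reads and libraries, so these counts are a description.

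The same split was seen inside elements. Of 82 elements with both parts tested, the LTR had the lower log2 fold change in 64, with medians of -0.17 for the LTRs and 0.087 for the internal parts. At single times the LTR was the lower part in 51, 57, 51 and 58 elements. In all, 42 of the 82 pairs had the same sign in both parts, and the changes of the 2 parts correlated weakly across elements (Pearson r 0.396, a description over pairs that share libraries).

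**Figure D4:**
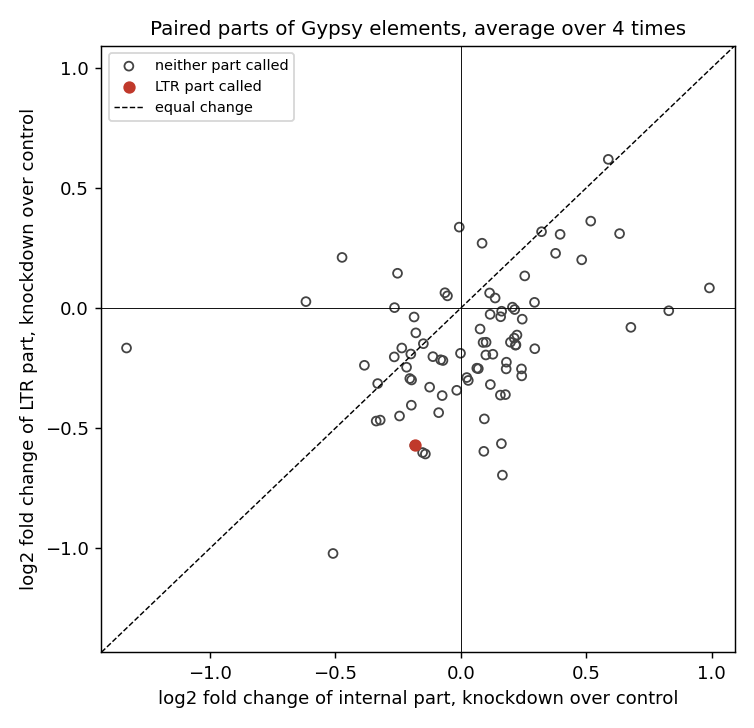
Average log2 fold change, knockdown over control, of the internal part (horizontal axis) and the LTR (vertical axis) of 82 Gypsy elements. The dashed line marks equal change and the filled point is Gypsy117, whose LTR was called lower. More elements lie below the line (64) than above it.

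Per library, the ratio of summed LTR counts to summed internal counts had a lower mean in knockdown embryos at each of the 4 times, and the treatments did not overlap at 8, 14 and 18 hpf. On the log2 scale it was -0.64 and -0.71 in knockdown embryos against -0.55 and -0.60 in control embryos at 8 hpf, -0.16 and -0.97 against -0.007 and -0.68 at 11 hpf, -0.51 and -0.78 against -0.41 and -0.40 at 14 hpf, and -0.32 and -0.37 against -0.15 and 0.084 at 18 hpf. At 11 hpf the replicates of 1 treatment lay further apart than the treatments, and replicate 2 was the lower in both. The mean difference was -0.22 over the 4 times. It was -0.12 with knockdown 11 hpf replicate 2 left out and -0.14 with control 11 hpf replicate 1 left out.

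In the other LTR-class families the same ratio was -1.55 and -1.59 in knockdown embryos against -1.53 and -1.63 in control embryos at 8 hpf, -1.13 and -1.53 against -0.98 and -1.39 at 11 hpf, -1.42 and -1.54 against -1.33 and -1.23 at 14 hpf, and -1.19 and -1.36 against -0.95 and -0.98 at 18 hpf. There the treatments overlapped at 8 and 11 hpf and not at 14 and 18 hpf. As LTRs and internal parts differ in length, the ratio itself is no ratio of transcripts, and only its differences between libraries are read. What moved the ratio in both treatments at 11 hpf was not tested.

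**Figure D5:**
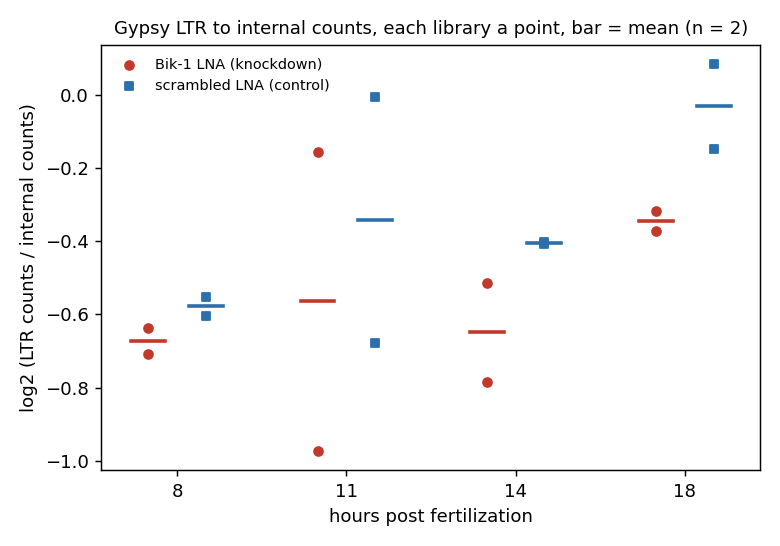
Log2 ratio of summed LTR counts to summed internal counts of the tested Gypsy families at 8, 11, 14 and 18 hpf. Each point is a library and each bar the mean of 2, with knockdown embryos as red circles left of control embryos as blue squares. The highest ratio, 0.084, is in a control library at 18 hpf and the lowest, -0.97, in a knockdown library at 11 hpf.

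Genes of transposon silencing were read from a list of 40, of which 34 were tested. In the knockdown average 0 rose and 1 fell, where 0.332% of all features rose and 1.3% fell. The gene that fell was atf7ip, a partner of the histone methyltransferase SETDB1, with an average log2 fold change of -0.30 (SE 0.065, adjusted p = 0.0262). It stood at 156 CPM in knockdown embryos and 245 CPM in control embryos at 8 hpf, and at 181 and 192 CPM at 18 hpf (means, n = 2). Its log2 change was -0.65 at 8 hpf (adjusted p = 0.0377). At 11, 14 and 18 hpf it was -0.27, -0.18 and -0.083, not called. uhrf1, which brings DNA methyltransferase to replicated DNA, had 0.30 (SE 0.075, adjusted p = 0.0546). dnmt1, the maintenance methyltransferase, had 0.077 (SE 0.064, adjusted p = 0.598). The list's median was 0.044, against 0.009 for all features.

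Over the same hours in which Gypsy internal parts fell in control embryos, 17 of the 34 genes fell and 6 rose, with a median log2 change of -0.39, while 26.4% of all features fell and 33.7% rose. The germ line helicase gene ddx4 (vasa) fell by 3.12 (SE 0.33, adjusted p = 7.8e-07), and tdrd9, a tudor gene of the Piwi pathway, fell by 3.11 (SE 0.73, adjusted p = 0.0016). At 8 hpf tdrd9 stood at 1.35 CPM in knockdown embryos and 7.79 CPM in control embryos, and at 18 hpf at 1.42 and 0.939 CPM (means, n = 2). Its mean thus fell in control embryos only, and the treatments were not called different at 8 hpf (adjusted p = 0.169). The de novo methyltransferase genes moved in both directions. dnmt3bb.2 fell by 1.59 (SE 0.13, adjusted p = 4.91e-08) and dnmt3bb.1 by 1.02 (adjusted p = 0.005), while dnmt3ba (-0.05) and dnmt3bb.3 (-0.08) were not called. Of a pair of genes that share the symbol DNMT3A, one rose by 4.18 (adjusted p = 7.1e-08) and the other had 1.46 (adjusted p = 0.18). dnmt1 rose by 1.07 (SE 0.13, adjusted p = 3.31e-06). tet2 and tet3, which oxidise methylated DNA, rose by 6.67 and 6.11. Both started low in control embryos, at 0.576 and 2.34 CPM at 8 hpf against 61.2 and 162 CPM at 18 hpf (means, n = 2). The size of the tet2 change thus rests on few reads at 8 hpf. Of the 6 listed germ cell markers 0 were called in the knockdown comparisons and 2, ddx4 and dnd1, fell over time in control embryos. The part of these genes or cells in the Gypsy changes was not tested.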

How the data were processed

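The authors deposited raw read counts, whole numbers per Ensembl gene and per repeat family, for 16 polyadenylated RNA libraries. STAR and GRCz11 are named in the submitters' processing notes. The counting program, its strand setting and its treatment of reads that match several copies were not given in the sources used here, so reads could be split between related families or between an element and a gene that holds a copy. The members and lists were chosen with earlier results of these data known.

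Genes and families were fitted together in edgeR 4.0.16 (R 4.3.3), with TMM scaling, filterByExpr and robust quasi-likelihood tests. The fit had 8 groups, 8 residual degrees of freedom and a biological coefficient of variation of 0.177, and kept 17756 features (862 families). Contrasts compared knockdown with control and later with earlier times. Each SE was worked back from the test, as the absolute log2 fold change over the square root of its F statistic. In each group the replicates lay further apart than sampling noise (chi-square per degree of freedom 3.89 to 31.4).

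Named members were the 12 with the highest mean CPM, those called in a knockdown comparison with the lowest p up to 5 and their other parts, the largest called changes over time in control embryos (8 each way from 8 to 18 hpf, 3 each way per step, mean CPM 1 or more), and 3 on each side of the count minimum. Alternatives were DESeq2 1.42.0, median-of-ratios size factors, TMM from genes alone, no filter, the compared groups alone, a replicate block, other times averaged and each library left out.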

Additional observations from a re-analysis of the deposited data

How the results depend on the processing

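The knockdown comparisons at 11 and 18 hpf and the test for a knockdown effect that differs between times gave 0 called members under all alternatives. On average over the 4 times the 3 calls became 15 with no filter on low counts (6.73% of members, against 3.92% of all features) and 0 over 11, 14 and 18 hpf only (1 there with either other scaling), and 2 to 17 when 1 library was left out (17 without knockdown 11 hpf replicate 1). Over 11, 14 and 18 hpf only, the adjusted p was 0.0502 for Gypsy85-LTR_DR, 0.094 for Gypsy117-LTR_DR and 0.123 for Gypsy37-LTR_DR. With no filter, 13 members were called over these 3 times (5.83%, against 2.85% of all features). With no filter, 2 members were called at 8 hpf (0.897%, against 1.19% of all features) and 1 at 14 hpf (0.448%, against 0.569%). With the groups of 14 hpf fitted alone 1 was called. In control embryos the 7 calls from 14 to 18 hpf became 18 with no filter (8.07%, against 10.3% of all features) and 31 with the groups compared fitted alone. The 27 from 8 to 11 hpf became 15 when fitted alone. The shares of all features in groups fitted alone were not counted. With 1 library left out, calls ranged from 3 to 28 from 8 to 11 hpf, from 1 to 9 from 14 to 18 hpf and from 45 to 83 from 8 to 18 hpf in control embryos, and from 39 to 82 from 8 to 18 hpf in knockdown embryos. The cause was not tested.

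Same-numbered knockdown and control replicates deviated together with a correlation of 0.321, 0.495, 0.163 and 0.075 at 8, 11, 14 and 18 hpf over all features, and of 0.271, 0.423, 0.277 and 0.236 over the members. The labels give no pairing, and the value over all features at 18 hpf is under the 0.1 asked of every time, so the numbers were not taken to pair the samples, though the data hint at a pairing at the earlier times. With the replicate number as a block within each time, 27 members were called in the knockdown average (12.3%, against 11.8% of all features). Over 11, 14 and 18 hpf only, the block gave 19 (8.68%, against 8.53%). At single times it gave 7 at 8 hpf (3.2%, against 3.5%), 5 at 14 hpf (2.28%, against 1.76%) and 0 at 11 and 18 hpf. In control embryos the block gave 61 from 8 to 11 hpf (27.9%, against 43.6% of all features) and 6 from 11 to 14 hpf (2.74%, against 11.5%). It gave 35 from 14 to 18 hpf (16%, against 25.9%) and 105 from 8 to 18 hpf (47.9%, against 67.6%).

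No named change reversed: of 616 values for 28 changes, 562 kept their call and 54 lost it. Other scalings moved the members' median by at most 0.051 on the log2 scale. Choices added after seeing the data gave 55 to 67 of 82 pairs with the LTR lower, a log2 LTR to internal difference of -0.32 to -0.12, and a log2 ratio of summed CPM of -0.12 to -0.066. At a single time the members' median SE was 0.46 to 0.48 with a median of 36.3 counts, and that of all features was 0.33 with 73.2 counts. Whether depth accounts for the lack of calls at single times was not tested.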
